A study of Arabidopsis thaliana with 8 samples.

Results

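The JAZ (jasmonate ZIM-domain) repressors JAZ1 to JAZ10 of Arabidopsis thaliana, the model plant of the mustard family, were followed in shoots of submerged and unsubmerged plants. The genes were chosen by locus code, and all 10 were found among the 27826 loci of the deposited table. The study hybridised 8 Affymetrix arrays, 1 for each total RNA sample, in 4 groups of 2. Juvenile plants (2 weeks old) and adult plants (3 weeks old) were placed for 24 h either in tanks of deionised water or in the same kind of tanks without water. Darkness was common to all 4 groups, and the treatment began when the light phase ended, so the controls are dark controls in air and no group was kept in light. The labels give no ecotype, mutation or transgene, and do not say how many plants went into a sample.

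Jasmonates are lipid-derived hormones best known for wound and pathogen responses, growth restraint and leaf senescence. When the active form, jasmonoyl-isoleucine, is scarce, JAZ proteins hold transcription factors such as MYC2 inactive by recruiting the adaptor NINJA and co-repressors of the TOPLESS family. When it is abundant, it joins JAZ proteins to the F-box receptor COI1, the JAZ proteins are degraded, and the released factors switch on jasmonate genes, which include many JAZ genes themselves, so that JAZ transcripts are often used as a readout of the pathway. Submergence in darkness cuts off gas exchange, and low oxygen, trapped ethylene and lack of sugar are its main components.

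The values are on a log2 scale, so a difference of 1 is a change of 2-fold. Array medians lay between 6.13 and 6.30. As a check of the treatment labels, the submerged arrays stood far above the controls for the fermentation genes ADH1 (alcohol dehydrogenase), which was 7.49 ± 0.11 in juvenile and 7.06 ± 0.01 in adult controls against 12.06 ± 0.04 and 12.12 ± 0.07 in submerged plants (SD, n = 2), and PDC1 (pyruvate decarboxylase), which rose by 7.37 at both ages. Of the leaf markers, RBCS1A, CA1 and RCA had group means between 9.10 and 12.82, while LHCB1.1, which has near-identical copies, had group means between 2.92 and 4.14. Among 6 root markers, 5 had group means of at most 5.58, and PYK10, a glucosidase of endoplasmic reticulum bodies that seedling shoots also make, was 10.59 and 9.87 in juvenile and adult controls and 9.46 and 7.66 in submerged plants. The mean of the 6 root markers was 4.52 to 4.79 on single control arrays and 4.17 to 4.52 on submerged arrays. Among 4 floral markers AP1, AP3 and AG had group means of at most 4.09, whereas PI went from 5.75 to 8.74 in juvenile and from 5.76 to 8.90 in adult plants. The mean of the 4 was 3.76 to 4.11 on control arrays and 4.46 to 4.95 on submerged arrays. The part of these markers in the results below was not tested, and in whole shoots a change in the cells present and a change in RNA per cell cannot be told apart.

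Under submergence some JAZ genes rose and others fell. JAZ5, JAZ1 and JAZ2 rose, JAZ7 fell, JAZ4 fell in juvenile plants, and the other 5 passed the test at neither age. A gene was called when its adjusted p was under 0.05 with limma, a linear model whose variances are shared across genes, after Benjamini-Hochberg adjustment over all loci. Every adjusted p below is of this kind.

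JAZ5 (AT1G17380) had the largest change of the family. The dark controls gave 4.17 and 3.67 in juvenile plants and 4.60 and 4.75 in adult plants, and the submerged arrays gave 6.87 and 6.61 in juvenile and 6.18 and 6.61 in adult plants. All 4 submerged arrays lay above all 4 controls. The rise was 2.82 in juvenile plants (95% confidence interval 2.30 to 3.34, limma adjusted p 0.000109), or 7.05-fold, and 1.72 in adult plants (standard error 0.22, limma adjusted p 0.00105), or 3.30-fold.

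JAZ1 (AT1G19180), a direct partner of COI1, showed the same pattern. Its dark controls read 8.90 and 8.40 in juvenile and 9.19 and 9.14 in adult plants. The submerged arrays were close together, at 10.39 and 10.36 in juvenile and 10.48 and 10.37 in adult plants. The control levels of the ages did not overlap, and the submerged levels did. The rise was 1.72 in juvenile plants (1.32 to 2.13, limma adjusted p 0.000333), or 3.30-fold, and 1.26 in adult plants (0.85 to 1.67, limma adjusted p 0.00143), or 2.39-fold.

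JAZ2 (AT1G74950), the closest relative of JAZ1 and known from guard cells, rose less. Control arrays gave 9.48 and 9.18 in juvenile and 9.61 and 9.57 in adult plants, and submerged arrays gave 10.13 and 10.03 in juvenile and 10.22 and 10.22 in adult plants. Every submerged array was above every control. The rise was 0.75 in juvenile plants (0.43 to 1.06, limma adjusted p 0.00465) and 0.62 in adult plants (0.31 to 0.94, limma adjusted p 0.0105), that is 1.68-fold and 1.54-fold. Without replicate 2 of the adult controls, the adult rise was 0.60 and no longer called (limma adjusted p 0.0588).

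**Figure D1:**
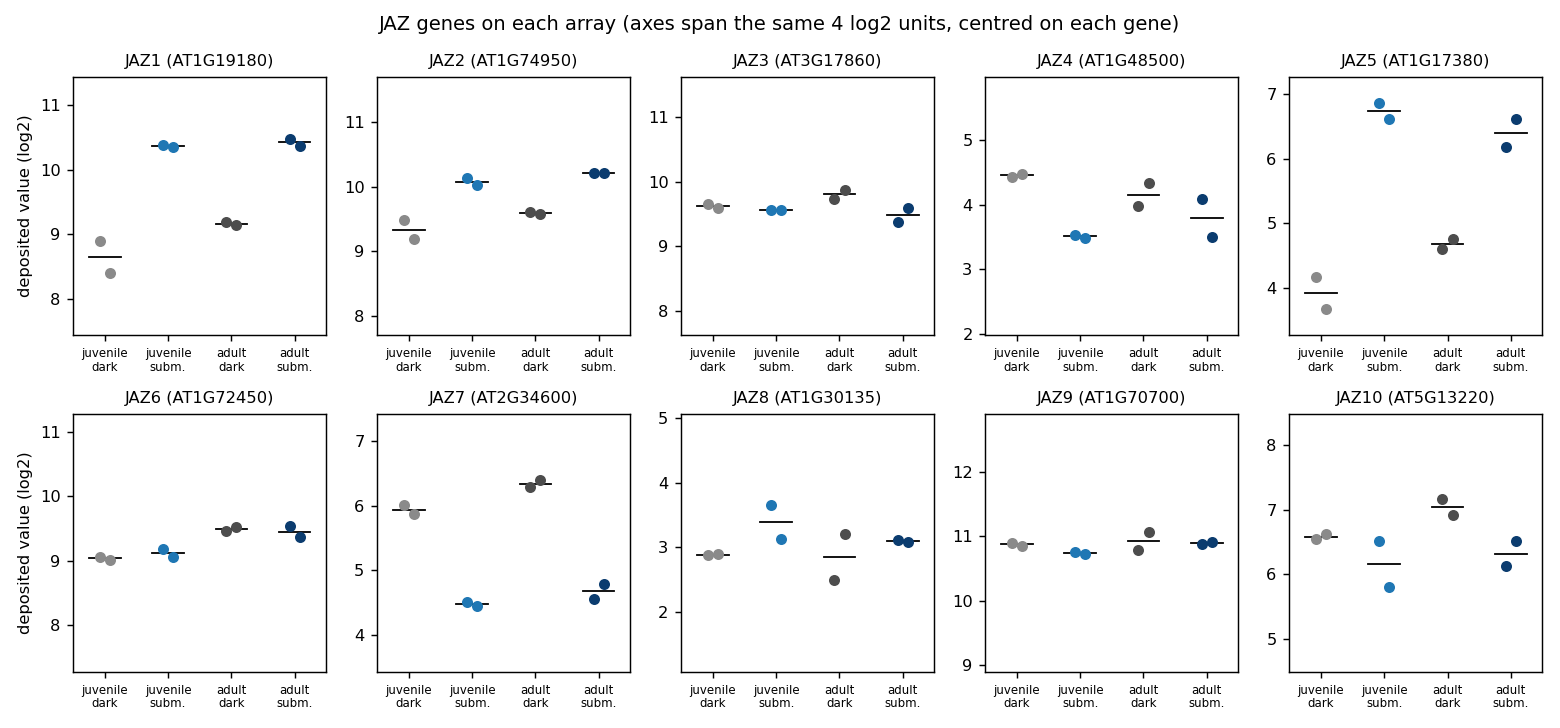
Deposited log2 values of the 10 JAZ genes, 1 panel a gene; each point is 1 array, black bars are group means (n = 2), and the x axis gives the group (dark control or submerged, juvenile or adult). JAZ1, JAZ2 and JAZ5 stand higher and JAZ7 lower on all 4 submerged arrays than on all 4 control arrays, and JAZ5 runs from 3.67 to 6.87.

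JAZ7 (AT2G34600) moved the other way. It carries its own repression motif, which lets it bind TOPLESS without NINJA, and it is known as a brake on leaf senescence in darkness. Dark controls gave 6.01 and 5.87 in juvenile and 6.29 and 6.39 in adult plants, against 4.51 and 4.45 in submerged juvenile and 4.56 and 4.79 in submerged adult plants. All 4 submerged arrays were below all 4 controls. JAZ7 fell by 1.46 in juvenile plants (interval of the difference -1.77 to -1.16, limma adjusted p 0.00019), a 2.75-fold decrease, and by 1.67 in adult plants (-1.97 to -1.36, limma adjusted p 0.000122), a 3.18-fold decrease.

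JAZ4 (AT1G48500), which in Arabidopsis also binds the cold regulator ICE1, read 4.43 and 4.47 in juvenile controls and 3.54 and 3.48 in submerged juvenile plants. It fell by 0.94 there (-1.44 to -0.44, limma adjusted p 0.0125). Its submerged juvenile values lay below the lower quartile of locus means (3.55), a low range where changes can be compressed. The call rested on all 4 arrays of that comparison: with any 1 of the juvenile arrays left out, the difference was -0.97 to -0.92 and the limma adjusted p 0.0514 to 0.0636. In adult plants the groups overlapped, with 3.98 and 4.33 in controls and 4.08 and 3.49 in submerged plants, a difference of -0.36 (-0.86 to 0.14, limma adjusted p 0.241). This value rested on single arrays: it was -0.66 and called without replicate 1 of the submerged adult arrays (limma adjusted p 0.0438), and -0.068 without replicate 2.

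JAZ10 (AT5G13220), whose alternatively spliced forms differ in stability, read 6.54 and 6.62 in juvenile controls, 6.52 and 5.80 in submerged juvenile plants, 7.17 and 6.92 in adult controls and 6.13 and 6.52 in submerged adult plants. Its controls lay above its submerged arrays at each age, and the submerged pairs were the more scattered. The difference was -0.42 in juvenile plants (-1.01 to 0.17, limma adjusted p 0.248) and -0.73 in adult plants (-1.32 to -0.14, limma adjusted p 0.0627), neither of them called. JAZ10 was near the threshold in adult plants and was called in 6 of 15 alternative fits. All 6 kept the estimate of -0.73 and changed only its error or the loci tested. With single adult arrays left out, the adult difference ran from -0.92 to -0.53. In juvenile plants JAZ10 was called in 1 of 15 fits, that without replicate 1 of the submerged juvenile arrays (-0.78). Since the array reports 1 value per locus, splice forms could not be separated.

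JAZ3 (AT3G17860) and JAZ9 (AT1G70700), relatives of JAZ4, held nearly steady values. JAZ3, a listed member of the core set of hypoxia-responsive genes, read 9.65 and 9.59 in juvenile controls, 9.56 and 9.56 in submerged juvenile plants, 9.74 and 9.88 in adult controls and 9.37 and 9.59 in submerged adult plants. Its 2 submerged adult arrays lay below both adult controls, a difference of -0.33 (-0.62 to -0.03, limma adjusted p 0.0864), which became a call in 2 of 15 alternative fits. Both fits kept that estimate and changed only its error or the loci tested. The juvenile difference was -0.06 (-0.35 to 0.24). JAZ9, known to bind the DELLA growth repressor RGA, ran only from 10.73 to 11.06 over the 8 arrays, with differences of -0.13 (-0.43 to 0.17) in juvenile and -0.02 (-0.33 to 0.28) in adult plants.

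JAZ6 (AT1G72450), the closest relative of JAZ5, gave 9.05 and 9.02 in juvenile controls, 9.17 and 9.06 in submerged juvenile plants, 9.46 and 9.52 in adult controls and 9.53 and 9.36 in submerged adult plants. Its differences under submergence were 0.08 (-0.20 to 0.36) and -0.05 (-0.32 to 0.23), so the intervals left out a change of the size seen in JAZ5. JAZ8 (AT1G30135), which lacks the canonical degron and so resists hormone-driven breakdown, read between 2.49 and 3.65, close to the lowest values of the arrays (1.86 to 2.14), where changes can be compressed. Its differences of 0.50 (-0.11 to 1.11) in juvenile and 0.25 (-0.36 to 0.86) in adult plants were not called.

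In all, 5 of 10 JAZ genes were called in juvenile plants, 3 higher and 2 lower, beside 34.2% of all loci (15.5% higher and 18.8% lower). For adult plants 4 of 10 were called, 3 higher and 1 lower, beside 33.6% of all loci (14.6% higher and 18.9% lower). Of the 10 genes, 3 at each age were called and changed at least 2-fold, beside 17.3% of all loci in juvenile and 16.7% in adult plants. The median change over the 10 genes was 0.01 in juvenile and -0.04 in adult plants, against -0.05 and -0.02 over all loci, and the median size without regard to sign was 0.62 and 0.49 against 0.33 at both ages. The arrays of the 2 treatments did not overlap for 10 of 10 JAZ genes in juvenile plants and for 6 of 10 in adult plants, beside 67.3% and 66.2% of all loci. The arrays of submerged juvenile plants had medians 0.13 above those of their controls. Relative to that shift the juvenile changes were 2.69 for JAZ5, 1.59 for JAZ1, 0.62 for JAZ2, -1.07 for JAZ4 and -1.59 for JAZ7, and the same 5 were called.

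**Figure D2:**
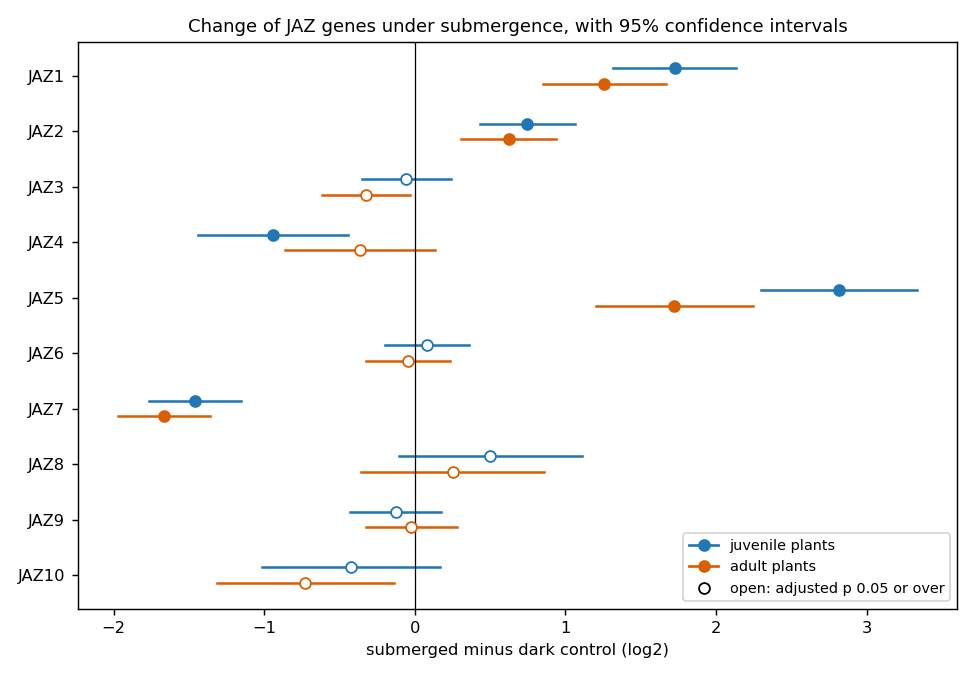
Change of each JAZ gene under submergence in juvenile (blue) and adult (orange) plants; the x axis is submerged minus dark control on the log2 scale, points are limma estimates from 2 arrays a group, lines are 95% confidence intervals and open points were not called. JAZ5 has the largest rise (2.82 and 1.72) and JAZ7 the largest fall (-1.46 and -1.67), and the intervals of JAZ6 and JAZ9 span 0 at both ages.

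Age made a smaller difference than submergence for JAZ1, JAZ2, JAZ4, JAZ5 and JAZ7, while JAZ6 differed more by age. In the dark controls 8 of 10 JAZ genes had higher values in adult than in juvenile plants, beside 50.9% of all loci, and 0 were called with limma, where 0.0539% of all loci were. An unadjusted limma p under 0.05 was reached by 4 of the 10, beside 10.1% of all loci. These were JAZ5, with a difference of 0.75 (0.23 to 1.27, limma adjusted p 0.32), JAZ1 with 0.52 (0.11 to 0.92, limma adjusted p 0.39), JAZ6 with 0.46 (0.18 to 0.74, limma adjusted p 0.262) and JAZ7 with 0.40 (0.10 to 0.71, limma adjusted p 0.369). Without replicate 2 of the juvenile controls the difference was 0.50 for JAZ5 and 0.26 for JAZ1. For each of these 4 genes both adult controls lay above both juvenile controls, as they did for 8 of 10 JAZ genes in either direction, beside 46.1% of all loci. JAZ9 (0.05) was among the 8 higher genes and changed sign when arrays were centred on their medians (-0.01). JAZ4 and JAZ8 were the lower genes, by 0.30 and 0.04, and for JAZ8 the sign turned without replicate 1 of the adult controls (0.31).

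In submerged plants adult minus juvenile was -0.34 (-0.86 to 0.18) for JAZ5 and 0.05 (-0.36 to 0.46) for JAZ1, and that of JAZ5 lay between -0.55 and -0.13 when single arrays were left out. JAZ6 was again higher in adult plants, by 0.33 (0.05 to 0.61, limma adjusted p 0.353), and was the only member at an unadjusted p under 0.05, which 11.8% of all loci reached. With limma 0 of the 10 were called, where 0.126% of all loci were. The arrays of the 2 ages did not overlap for 5 of 10 genes, beside 39.1% of all loci.

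**Figure D3:**
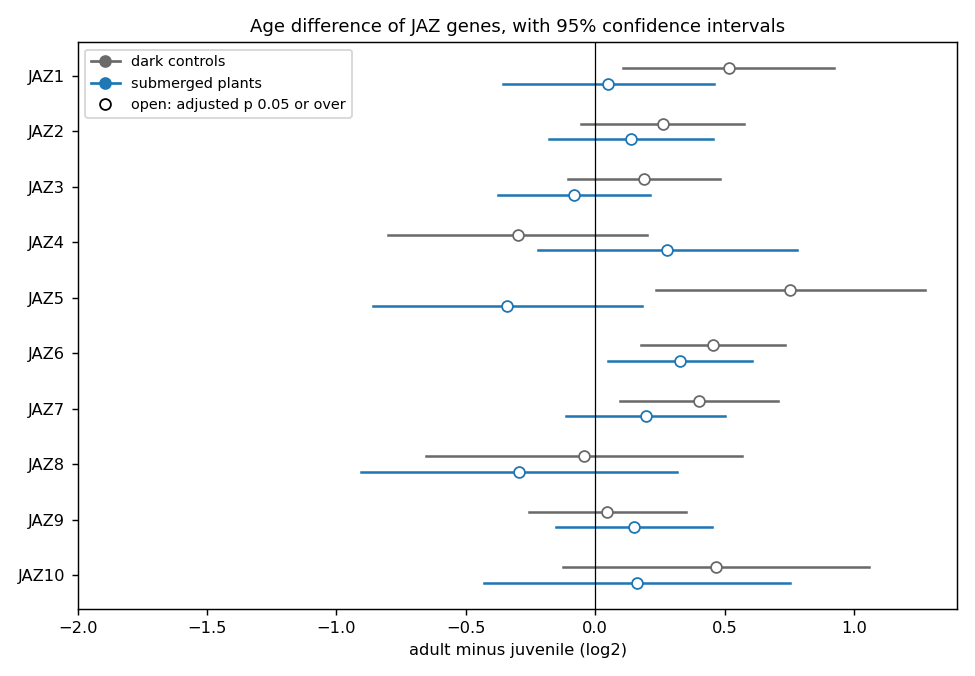
Adult minus juvenile difference of each JAZ gene (log2, x axis) in dark controls (grey) and submerged plants (blue), with 95% confidence intervals from limma; open points were not called. In the controls the intervals of JAZ1, JAZ5, JAZ6 and JAZ7 lie above 0, while under water only that of JAZ6 does.

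The response to submergence was then compared between the ages as an interaction, the adult change less the juvenile change. It was positive for 2 of 10 JAZ genes, JAZ4 and JAZ9, beside 50.3% of all loci. It called 0 of the 10 and 0 of all loci (0%). The largest was that of JAZ5, at -1.09 (-1.83 to -0.36), with an unadjusted limma p of 0.00977 and an adjusted p of 0.541. It lay between -1.35 and -0.84 when single arrays were left out. JAZ5 was the only JAZ gene at an unadjusted p under 0.05, which 7.30% of all loci reached. In adult plants the control level of JAZ5 was 0.75 above that of juvenile plants and the submerged level 0.34 below it, and neither difference was called. The interaction was -0.47 for JAZ1 (-1.04 to 0.11), 0.58 for JAZ4 (-0.13 to 1.29), -0.21 for JAZ7 (-0.64 to 0.23) and -0.12 for JAZ2 (-0.57 to 0.32). With single arrays left out it ran from -0.72 to -0.21 for JAZ1, from 0.28 to 0.88 for JAZ4, from -0.32 to -0.089 for JAZ7 and from -0.27 to 0.027 for JAZ2. Array medians alone shifted by -0.17 in this comparison, and after centring JAZ2 and JAZ6 had values of 0.04 and 0.04.

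Other members of the TIFY family share the ZIM domain. Of 6 measured genes, 1 rose and 4 fell at each age. Of all loci, 15.5% rose and 18.8% fell in juvenile plants, and 14.6% rose and 18.9% fell in adult plants. In juvenile plants JAZ11 fell by 1.36 (limma adjusted p 0.00352), and in adult plants it fell by 1.05 (0.0111). Its juvenile controls read 9.78 and 9.95 and the submerged juvenile arrays 8.17 and 8.85, with no overlap, and its adult call was lost without replicate 2 of either adult group (limma adjusted p up to 0.0624). JAZ12 fell by 0.50 (limma adjusted p 0.0114) and 0.70 (limma adjusted p 0.0027), and its juvenile call was lost without either juvenile control (up to 0.0764). Of the PEAPOD genes, growth regulators that limit leaf cell proliferation, PPD1 fell by 0.62 and 1.11 while PPD2 rose by 0.69 and 0.89. The juvenile call of PPD1 held in 2 of 8 fits without 1 array (limma adjusted p up to 0.137), and that of PPD2 was lost without replicate 2 of the juvenile controls (0.0616). These neighbouring PEAPOD genes are near-identical copies whose probes may share signal. AT3G22275 read between 2.45 and 3.45 over the 8 arrays, with changes of 0.05 and 0.51, not called, although the adult change was 0.83 (limma adjusted p 0.0303) without replicate 2 of the submerged adult arrays.

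Of 13 genes of the receptor and co-repressor machinery, 2 rose and 1 fell in juvenile plants, and 2 rose and 0 fell in adult plants, where 34.2% and 33.6% of all loci were called. Their median changes were 0.03 and 0.01. TPR3, a TOPLESS-related co-repressor, was the exception in size. Its control arrays read 5.68 and 5.49 in juvenile and 5.61 and 5.49 in adult plants, and its submerged arrays 7.70 and 7.28 in juvenile and 6.90 and 7.15 in adult plants. TPR3 rose by 1.91 (limma adjusted p 0.000239) and 1.48 (limma adjusted p 0.000797), and the arrays of the 2 treatments did not overlap. The receptor gene COI1 rose by 0.51 (limma adjusted p 0.00897) in juvenile and 0.40 (limma adjusted p 0.0234) in adult plants. Its juvenile call was lost without replicate 1 of the juvenile controls (0.0621), and its adult call held in 2 of 8 fits without 1 array (up to 0.114). The histone deacetylase gene HDA19 fell by 0.35 in juvenile plants (limma adjusted p 0.0457), a call lost without any 1 of the 8 arrays (0.0594 to 0.177). NINJA had changes of 0.08 and -0.12, not called.

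Among 15 genes for proteins known to be bound by JAZ repressors or to work with MYC2, 3 rose and 1 fell in juvenile plants, and 1 rose and 2 fell in adult plants, against 34.2% and 33.6% of all loci called. MYC2, the central activator, read 6.91 and 6.90 in juvenile controls, 6.67 and 6.70 in submerged juvenile plants, 7.14 and 7.34 in adult controls and 6.81 and 6.65 in submerged adult plants. All 4 submerged arrays were below the controls, and MYC2 fell by 0.51 in adult plants (limma adjusted p 0.0174), while the juvenile difference of -0.22 was not called (0.219). The adult call of MYC2 was lost without replicate 2 of the adult controls (0.106) or of the submerged adult arrays (0.0838). Its relative MYC4 rose by 0.57 and 0.53, and MYC3 rose by 0.45 in juvenile plants, with an uncalled 0.32 in adult plants. With arrays centred on their medians, MYC3 instead had an uncalled 0.32 in juvenile plants (limma adjusted p 0.0637) and a called 0.36 in adult plants (0.0471). Calls of MYC3 and MYC4 were lost in 3 of 8 juvenile fits without 1 array for MYC3, and in 2 of 8 juvenile and 3 of 8 adult fits for MYC4 (limma adjusted p up to 0.136). EIL1, an ethylene-signalling factor, fell by 0.74 and 0.44, and the adult call held in 2 of 8 fits (up to 0.162). TT8, an anthocyanin regulator, rose by 1.12 in juvenile plants (limma adjusted p 0.0178), a call lost without either juvenile control (up to 0.0869), and had an uncalled 0.26 in adult plants. Its juvenile submerged arrays were far apart, and the rise of TT8 became 0.68 when their replicate 2 was left out and 1.55 when their replicate 1 was.

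Most genes of jasmonate synthesis rose. Of 13 genes, 10 rose and 1 fell in juvenile plants, and 9 rose and 1 fell in adult plants. Of all loci, 15.5% and 14.6% rose and 18.8% and 18.9% fell. The median changes of the list were 1.11 and 0.68. LOX4, a lipoxygenase of the first step, had juvenile controls at 4.16 and 4.52 and adult controls at 4.74 and 4.85, against 9.29 and 8.78 in submerged juvenile and 9.12 and 9.78 in submerged adult plants. It rose by 4.69 (limma adjusted p 3.33e-05) and 4.66 (limma adjusted p 4.21e-05), or 25.8-fold and 25.2-fold. AOC1, an allene oxide cyclase, rose by 4.25 and 3.60, AOC3 by 2.13 and 1.76, and OPR3, the oxophytodienoate reductase, by 1.61 and 1.71. AOC1, AOC2 and AOC3 lie side by side and are similar enough that probes may share signal. The gene that fell was AOC4, by 0.79 and 1.21, and JAR1, which makes the isoleucine conjugate, had changes of -0.21 and -0.39, not called.

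Of 10 genes of jasmonate turnover, 4 rose and 2 fell in juvenile plants, beside 15.5% of all loci higher and 18.8% lower. In adult plants 3 rose and 2 fell, beside 14.6% higher and 18.9% lower, and the list medians were 0.04 and 0.05. IAR3, an amidohydrolase that splits the isoleucine conjugate, rose by 2.14 and 1.94, and CYP94C1, which oxidises it, by 2.03 and 1.90. ILL6, another amidohydrolase, fell by 1.02 and 1.77. AT2G38240 read 7.38 and 6.72 in submerged juvenile plants against 3.50 and 3.82 in submerged adult plants, with 3.05 to 3.97 in the 4 controls. AT2G38240 rose by 3.81 in juvenile plants (limma adjusted p 0.000194), had an uncalled 0.15 in adult plants, and differed by -3.39 between submerged adult and juvenile plants (limma adjusted p 0.0318). That age call held in 1 of 8 fits without 1 array (limma adjusted p 0.0338 to 0.145). Its interaction of -3.66 was not called (0.19).

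Of 12 jasmonate response genes, 7 rose and 1 fell in juvenile plants, and 6 rose and 1 fell in adult plants, with medians of 0.70 and 0.72. Among all loci 15.5% rose and 18.8% fell in juvenile plants, and 14.6% rose and 18.9% fell in adult plants. ORA59, a factor that joins jasmonate and ethylene signals, rose by 2.53 and 2.75. CORI3, a cystine lyase-like gene, rose by 2.37 and 1.76, and JAV1, a VQ-motif repressor of jasmonate defence, by 2.19 and 1.90. The lowest changes of the list were -0.37 for VSP2 in juvenile and -1.63 for THI2.1 in adult plants. VSP2 read only 2.44 to 2.92 over the 8 arrays, close to their lowest values. THI2.1 read 4.19 and 5.39 in adult controls against 2.68 and 3.63 in submerged adult plants. The defensin gene PDF1.2 rose by 2.77 in juvenile plants (limma adjusted p 0.00948), from 3.97 and 3.40 to 6.48 and 6.42. In adult plants its controls read 6.09 and 6.35 and its submerged arrays were far apart at 5.12 and 7.17. The adult difference of -0.07 (limma adjusted p 0.941) became 0.95 without replicate 1 and -1.10 without replicate 2 of the submerged adult arrays. Neither the age difference of PDF1.2 in controls (2.54) nor its interaction (-2.84) was called. The juvenile call of PDF1.2 was lost without replicate 2 of the juvenile controls (0.0579) or replicate 1 of the submerged juvenile arrays (0.0502).

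**Figure D4:**
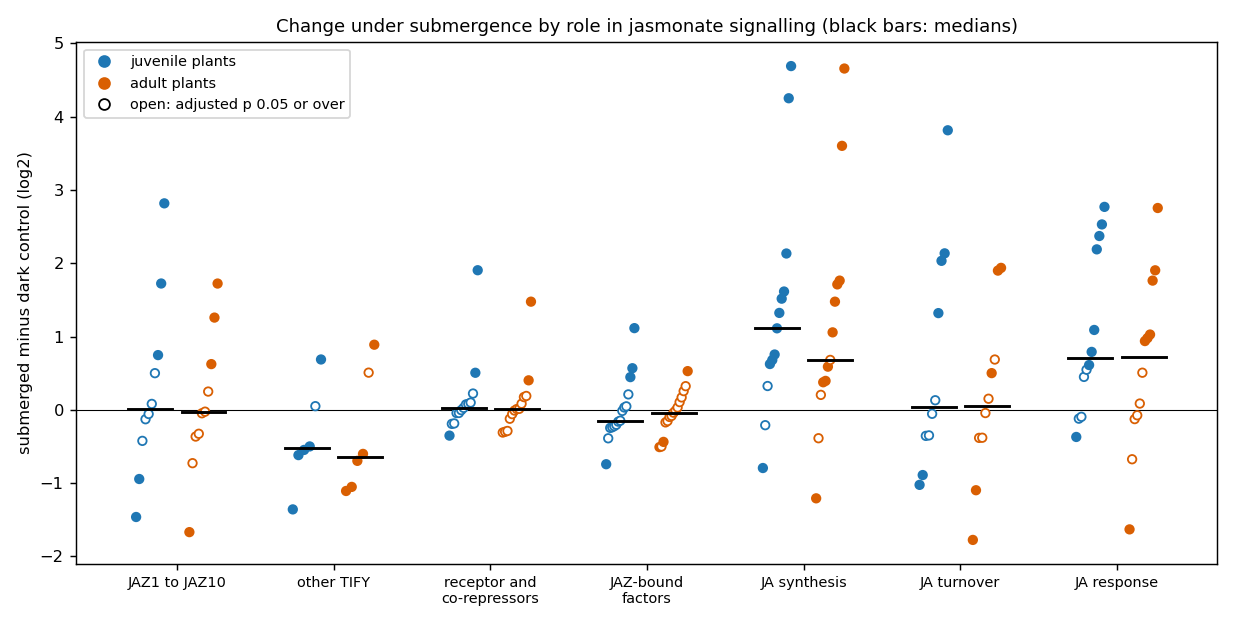
Change under submergence (log2, y axis) of each gene by role in jasmonate signalling, with juvenile plants in blue and adult plants in orange; each point is 1 gene, open points were not called, and black bars are list medians. Synthesis genes have medians of 1.11 and 0.68, whereas JAZ1 to JAZ10 have medians of 0.01 and -0.04 with members on both sides of 0.

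The genes most like the most variable JAZ genes were found by Pearson's r over the 8 arrays, given as a description because the arrays fall into a submerged and a control set. For JAZ5 they were NAC2 (AT3G15510, r = 0.994), FIS1B (0.993), AT2G45220 (0.992), AT2G27730 (0.992) and AMY2, an alpha-amylase (0.991). For JAZ7 they were LNG2, a LONGIFOLIA gene of leaf shape (0.998), HGL1 (0.996), AT1G65180 (0.996), ATMG00920 (0.995) and AT1G78890 (0.995). Such likeness was common, since 2943 loci exceeded r = 0.9 with JAZ5 and 3295 with JAZ7.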

How the data were processed

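The series matrix held 1 log2 value per locus and array for 8 arrays, as the authors deposited it, with 0 columns of no sample. RMA and limma are named in the submitters' processing notes, with no role or version, and the log2 scale was judged from the range of the deposited values. The array model, probe assignment and genome build are not given in the sources used here, so no coordinates or sequences are printed. Symbols came from a RefSeq gene table (TAIR10.1), which held all 10 JAZ loci and 27241 of 27826 loci. Listed genes without a matching symbol there are given by their RefSeq name or locus code.

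All 8 arrays entered 1 linear model of the group means in limma 3.58.1 in R 4.3.3 (lmFit, eBayes), with 4 residual degrees of freedom per locus and 2.99 from the prior (prior SD 0.156). The 5 comparisons were two-sided, and p-values were adjusted by Benjamini-Hochberg over all loci. An exact permutation test of 2 against 2 cannot go below 0.333. The number of arrays limits the precision, and nothing says that replicates came from separately grown plants. The p-values rest on the spread within groups, pooled over the 4 groups and shared across loci, and apply to these samples. Titles of submerged samples carry the word dark, and groups were taken from source names. The members and the 6 pathway lists (69 genes, all measured) were chosen with earlier results of these data known. Beside each list the text names all fixed members and up to 4 called genes with the largest mean change, and genes called for age. AOC4 and JAR1 of the synthesis list and VSP2 and THI2.1 of the response list were named outside this rule. The fit was tested on simulated data with 200 changed loci, far fewer than were called for submergence here. That test does not cover changes as widespread as those of these data. Alternatives were quantile normalization, centring on medians, removal of the dimmest 50% of loci, an intensity trend with robust prior, fits of the compared groups only, array weights, a replicate block, a threshold of 0.01 and omission of each array. Plots used Python 3.11.15 with matplotlib 3.10.9.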

Additional observations from a re-analysis of the deposited data

Results flagged for a closer look

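Results stood out here because submergence moved a gene in opposite directions at the 2 ages with arrays that did not overlap. No JAZ gene met this rule. Non-overlap alone held for 67.3% of all loci in juvenile and 66.2% in adult plants, and the share meeting the full rule was not counted. Among the pathway genes, chosen for mention after their values were seen, VSP1, a vegetative storage protein gene, changed by 0.45 in juvenile and -0.67 in adult plants, with an interaction of -1.12 (limma adjusted p 0.693). The adult controls of VSP1 read 2.96 and 4.07, and its submerged adult arrays 2.78 and 2.90. CYP94B1, a jasmonate oxidase gene, changed by -0.35 and 0.50, with an interaction of 0.86 (limma adjusted p 0.38). It read only 2.35 to 3.00 over the 8 arrays, close to their lowest values. ASK2, an SCF subunit gene, changed by -0.04 and 0.01, with an interaction of 0.055 (limma adjusted p 0.968). None of the 3 differences passed the test.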

How the results depend on the processing

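No JAZ difference that was called changed sign under any alternative (0 of 130 values), and 684 of 720 values of JAZ genes kept their direction and their side of the threshold. For the called differences, most alternatives kept the estimate fixed and changed only its error or the loci tested. A sign could turn only under quantile normalization, centring or omission of a compared array. JAZ1, JAZ5 and JAZ7 were called at both ages in each alternative fit that held them. Removal of the dimmest 50% of loci left 6 JAZ genes in the table, of which 2 were called in juvenile and 4 in adult plants, JAZ3 and JAZ10 (limma adjusted p 0.036 and 0.0359) being added there. With an intensity trend and robust prior 6 were called in adult plants, with JAZ3 (0.0285) and JAZ10 (0.0479) added. With 1 array left out, 4 to 5 JAZ genes were called in juvenile plants, 3 to 5 in adult plants and 0 for either age difference or the interaction.

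The replicate numbers of the labels left no clear trace of pairs: across loci, deviations of same-numbered arrays had r between -0.11 and 0.05. These values cannot show whether same-numbered samples were grown or handled together. A fit with the replicate block called 5 JAZ genes in juvenile and 4 in adult plants, 8 loci for age in controls and 4 for age under water. Among the named genes, 3 calls were lost with the block: juvenile PPD1 (limma adjusted p 0.0515), juvenile HDA19 (0.0688) and AT2G38240 for age under water (0.0575). That of AT2G38240 was also lost with array weights (0.0698) and in a fit of the compared groups only (0.186). The lowest r was that of the submerged groups, and no pairing was crossed.

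Counts over all loci moved most for age. At an adjusted p under 0.01, 6105 and 5927 loci were called for submergence in juvenile and adult plants and 0 for either age difference. For age in controls, 59 loci were called among the brighter loci, 149 with an intensity trend and robust prior, 141 with array weights, 0 in a fit of the compared groups only and 0 to 2 with 1 array left out. For age under water these were 264 with the trend, 6 with weights, 22 after centring, 0 in the own-group fit and 0 to 96 with 1 array left out. For the interaction they were 28 with the trend and 0 to 23 with 1 array left out.

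Only uncalled JAZ values changed sign. Centring turned JAZ6 (-0.049) in juvenile and JAZ9 (0.010) in adult submergence, JAZ9 (-0.013) for age in controls, JAZ3 (0.024) for age under water, and JAZ2 (0.043) and JAZ6 (0.038) in the interaction. Omission of single arrays gave ranges that crossed 0. In adult submergence these were -0.13 to 0.040 for JAZ6, -0.11 to 0.61 for JAZ8 and -0.16 to 0.12 for JAZ9. For age in controls they were -0.40 to 0.31 for JAZ8 and -0.094 to 0.19 for JAZ9. For age under water they were -0.0050 to 0.11 for JAZ1, -0.19 to 0.025 for JAZ3, -0.017 to 0.58 for JAZ4 and -0.19 to 0.52 for JAZ10. In the interaction they were -0.27 to 0.027 for JAZ2, -0.61 to 0.11 for JAZ8, -0.037 to 0.24 for JAZ9 and -0.66 to 0.051 for JAZ10. Other named genes were run the same way, as an addition made after the data were seen. In juvenile submergence centring turned AT3G22275 (-0.080) and NINJA (-0.050), and omission gave -0.080 to 0.18 for AT3G22275. In adult submergence omission gave -1.10 to 0.95 for PDF1.2 and -0.31 to 0.61 for AT2G38240, which had -0.19 to 0.74 for age in controls. Calls of other named genes also depended on the fit. In juvenile plants HDA19 was not called with quantile normalization (limma adjusted p 0.0743) or in the own-group fit (0.0963). The trend removed calls of PPD1 (0.0581) and MYC4 (0.0727) in juvenile plants and MYC4 (0.0934) in adult plants. In adult plants the own-group fit lost COI1 (0.0667), MYC2 (0.0555) and EIL1 (0.0551). HDA19 and MYC3 gained adult calls with the trend (0.00451 and 0.00269). The cause was not tested.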
